A study of Homo sapiens with 16 samples.

Results

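The 35 genes described here encode the machinery of mitosis: the kinase that starts it, the spindle and its motors, the kinetochore, the spindle checkpoint, the anaphase-promoting complex and cytokinesis. They were chosen as a list of symbols, by their known roles, with earlier results of these data known. The 35 are among the 28278 gene symbols counted in each of 16 RNA-seq libraries from a pair of human melanoma cell lines, and all 35 had enough reads to be tested in both lines. In SKMEL28, 34 of the 35 genes fell in the libraries labelled MITFKO, against 23.4% of all genes tested, and the median over the 35 was 2.00-fold lower than in wild type. In 1 of 2 clones in which TFE3 was also edited, 27 rose relative to MITFKO, against 18.2% of all genes tested, and 24 were still below wild type, against 22.5%. In the other clone 7 rose and 2 fell, against 20.5% and 20.2%. With 1 deviating library of that clone left out, 19 rose and 1 fell, against 21.8% and 20%. In A375 cells with edited TFE3 11 rose and 6 fell, against 21.3% and 22%.

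A cell enters mitosis when CDK1 bound to cyclin B is switched on by CDC25 phosphatases. The spindle then attaches to kinetochores, and the checkpoint holds the anaphase-promoting complex inactive until every chromosome is attached. The genes for these proteins are transcribed late in the cell cycle, under a repressor complex called DREAM in resting cells and the activators MYBL2 and FOXM1 in dividing ones, and their mRNA is commonly read as a sign of how many cells of a culture are dividing. MITF and TFE3 are related basic helix-loop-helix transcription factors. MITF is the lineage factor of melanocytes, and it is known in melanoma for its link to differentiation and proliferation.

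SKMEL28 and A375 are established melanoma lines, both with an activating BRAF mutation, and each group below consisted of separate flasks of cells, all given fresh medium 24 hours before harvest. The SKMEL28 groups were wild type (1 library, numbered 4), MITFKO (3 libraries, from a line the submitters call D2) and a double knockout, DKO, made by CRISPR-Cas9 editing of TFE3 in that MITFKO line (clone 3 and clone 13, 3 libraries each). All DKO libraries thus also carry the MITF edit of their controls. A375 contributed 3 wild-type and 3 TFE3KO libraries. The culture medium was RPMI for SKMEL28 and DMEM for A375, so line and medium cannot be told apart. Each SKMEL28 edited group was 1 line or clone, so that p-values measure the spread between flasks and not between independently edited clones. The labels of A375 TFE3KO name no clone, and its p-values too measure the spread between flasks. In bulk RNA, fewer cells in mitosis and less RNA of a gene per cell cannot be told apart.

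Total counts ran from 17320855 to 31269126 per library. Levels are given as CPM, read counts brought to one common library size with trimmed-mean scaling within the line. SOX10, a defining gene of the melanocyte lineage, was present in every library, whereas the pigment enzymes TYR and DCT were at 0 counts in A375 wild type and TYR in A375 TFE3KO. The summed CPM of 6 markers each ran, over all libraries, from 1.52 to 12 for leukocytes and endothelium, from 20.4 to 83.7 for keratinocytes and from 10.8 to 103 for fibroblasts, beside 512 to 991 for SOX10. TFE3 was used to check the labels: its mean in MITFKO was 73.4 ± 3.72 CPM (SD, n = 3), that of clone 3 was 9.37 ± 1.80 and that of clone 13 was 45.7 ± 2.88, with 125 ± 5.91 in A375 wild type against 12.1 ± 0.709 in TFE3KO. TFE3 mRNA was thus 7.83-fold lower in clone 3 and 1.603-fold lower in clone 13 than in MITFKO, and clone 13 was at the level of the SKMEL28 wild-type library (43.7 CPM; log2 fold change 0.07, SE 0.133, adjusted p = 0.706). This mRNA thus did not check the TFE3 label of clone 13, for which DKO is a name taken from the labels. MITF mRNA was not called between MITFKO (527, 499 and 468 CPM) and the wild-type library (524; adjusted p = 0.516), and the position of its edit is not given in the sources used here, so that this mRNA does not check that label. Mean MITF mRNA was 781 ± 28.9 CPM in clone 3 and 870 ± 64.3 in clone 13, against 498 ± 29.7 in MITFKO (SD, n = 3). Of 7 melanoma lineage markers, MITF among them, 4 were higher and 1 lower in clone 3 than in MITFKO (18.2% and 17.6% of genes tested). In clone 13 the counts were 5 and 2 (20.5% and 20.2%). The part of these differences in the results was not tested. The wild-type SKMEL28 count came from another input number in the file headers than 14 of the other libraries, and this difference and the genotype cannot be told apart.

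The start sites of these genes are known for a pair of short sequences. DREAM, MYBL2 and FOXM1 act through the cell cycle genes homology region, CHR, with the letters TTTGAA or TTCGAA. The other, the CCAAT box, is bound by NF-Y. Of the 35 genes, 30 had a promoter in the RefSeq table (GRCh38.p14, 250 bases before to 50 after the start). AURKA, TPX2, BIRC5, TTK and UBE2C are named only. Counting matches on both strands, TTTGAA was in 21 of 30 promoters (70.0%), against 15.2% of all 35116 promoters in the table and 9.72% of the 11169 promoters of genes tested in SKMEL28. CCAAT was in 23 of 30 (76.7%), against 34.6% and 36.8%. Either CHR form together with CCAAT was in 18 of 30 (60%), against 6.38% and 4.83%. A match is a description of the letters and not a bound site, and matches on the 2 strands can overlap.

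The 150 bases before the start are printed for 6 genes on which the results below turn: those with the largest falls in MITFKO (CDCA8, CDC20 and MKI67), the gene with the smallest fall (PTTG1), and a pair that parted in the DKO clones (ANLN and ECT2). Capitals mark CHR matches (TTTGAA, or TTCAAA read on the other strand) and CCAAT matches (CCAAT or ATTGG), and each sequence runs 5′ to 3′ on the strand of its gene.
CDCA8 (GRCh38.p14, chr1:37692366-37692515, plus strand): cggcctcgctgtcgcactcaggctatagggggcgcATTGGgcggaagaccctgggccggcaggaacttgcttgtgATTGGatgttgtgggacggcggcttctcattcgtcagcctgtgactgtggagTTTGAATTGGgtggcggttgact
CDC20 (GRCh38.p14, chr1:43358831-43358980, plus strand): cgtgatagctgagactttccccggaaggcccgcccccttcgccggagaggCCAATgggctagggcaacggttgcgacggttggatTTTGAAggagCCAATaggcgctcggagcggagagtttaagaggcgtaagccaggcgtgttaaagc
MKI67 (GRCh38.p14, chr10:128126424-128126573, minus strand): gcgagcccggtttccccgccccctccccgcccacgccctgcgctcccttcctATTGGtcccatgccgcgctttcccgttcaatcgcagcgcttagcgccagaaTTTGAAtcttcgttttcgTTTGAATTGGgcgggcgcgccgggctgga
PTTG1 (GRCh38.p14, chr5:160421705-160421854, plus strand): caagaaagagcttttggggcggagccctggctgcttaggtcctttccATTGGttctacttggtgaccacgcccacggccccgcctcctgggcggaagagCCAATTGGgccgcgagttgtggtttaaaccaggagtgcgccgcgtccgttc
ANLN (GRCh38.p14, chr7:36389712-36389861, plus strand): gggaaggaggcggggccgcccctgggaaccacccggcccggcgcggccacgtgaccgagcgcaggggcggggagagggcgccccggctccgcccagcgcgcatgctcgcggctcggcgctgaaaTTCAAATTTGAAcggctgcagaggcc
ECT2 (GRCh38.p14, chr3:172750576-172750725, plus strand): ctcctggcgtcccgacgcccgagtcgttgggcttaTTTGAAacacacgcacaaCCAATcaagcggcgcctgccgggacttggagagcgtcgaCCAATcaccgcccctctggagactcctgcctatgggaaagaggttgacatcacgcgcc
CDCA8, CDC20, MKI67 and ECT2 held both elements in this stretch. PTTG1 held CCAAT matches and no CHR match, and ANLN held CHR matches and no CCAAT match. The spread of the responses was set beside the CHR letters: in MITFKO the median log2 fold change was -0.99 for the 22 genes with a CHR form in the full window and -1.03 for the 8 without, in clone 3 against MITFKO 0.46 and 0.48, and in clone 13 against wild type -0.83 and -1.04. For the 23 genes with CCAAT and the 7 without, the medians were -1.03 and -0.99 in MITFKO, 0.47 and 0.40 in clone 3 and 0.08 and 0.22 in clone 13 against MITFKO, -1.04 and -0.73 in clone 13 against wild type, and 0.07 and -0.07 in A375 TFE3KO. No test was made of these descriptions. The letters CACGTG, an E-box that MITF and TFE3 can bind, were in 5 of 30 promoters (16.7%; CCNB1, PLK1, CENPE, CENPF and ANLN), against 9.99% of promoters of genes tested. The related letters CATGTG were in 1 of 30 (CENPA), against 6.88%.

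The summed level of the 35 genes differed between the SKMEL28 groups. It was 5094 CPM in the wild-type library and 2549 ± 45.4 (SD, n = 3) in MITFKO, while clone 3 had 3682 ± 199 and clone 13 had 2755 ± 395. The share of all counts was 0.551% in wild type, 0.260% to 0.273% in MITFKO, 0.342% to 0.381% in clone 3 and 0.207% to 0.289% in clone 13. Clone 3 libraries lay between MITFKO and wild type without overlap, while clone 13 libraries lay on both sides of MITFKO. In A375 the sum was 6903 ± 95.0 in wild type and 7162 ± 118 in TFE3KO, 0.681% to 0.697% and 0.706% to 0.729% of counts, so both A375 groups were above the SKMEL28 wild-type library.

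Clone 13 replicate 2 stood apart from its group. Relative to the MITFKO mean, the median log2 level of the 35 genes was 0.28 in clone 13 replicate 1, -0.23 in replicate 2 and 0.17 in replicate 3. Replicate 2 was the lowest of the 3 for 33 of the 35 genes, a count not made over all genes. The median coefficient of variation of the genes was 16.3% in clone 13, against 3.30% to 6.30% in the other replicated groups. DNA replication genes deviated in the same library (median -0.36 against its other replicates, beside -0.39 for the 35 genes and -0.005 over all genes tested). Its total of 23048354 counts was not low. In clone 3 the library with the same number was also the lowest, by less: replicate 2 was the lowest of the 3 for 25 genes, again not counted over all genes. Its median deviation was -0.13 for the 35 genes, -0.13 for the DNA replication genes and -0.004 over all genes tested. Clone 13 results are therefore given with and without clone 13 replicate 2.

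**Figure D1:**
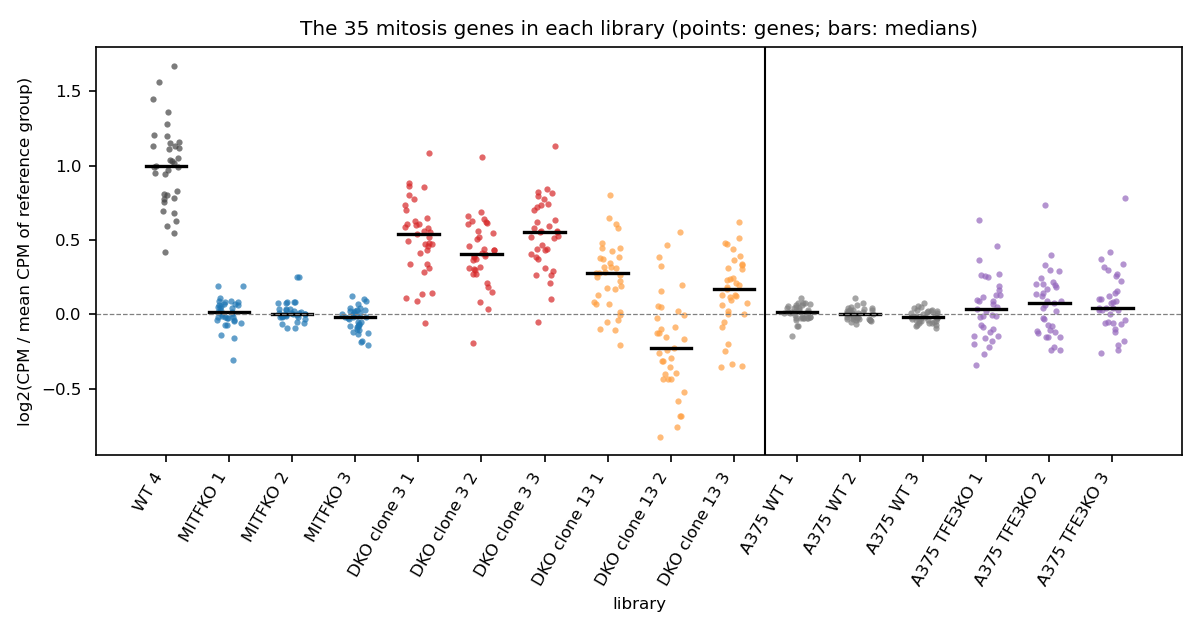
Level of each of the 35 genes (points) and their median (bar) in each library, as log2 of CPM over the mean CPM of MITFKO for SKMEL28 or of wild type for A375. The wild-type bar is at 1.00, the clone 3 bars at 0.40 to 0.55, and the clone 13 bars at 0.28, -0.23 and 0.17, with replicate 2 the lowest.

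MITFKO against wild type asked how these genes stand in SKMEL28 cells with edited MITF. All 35 genes were lower in each of the 3 MITFKO libraries than in the wild-type library, a separation not counted over all genes. Of the 35 genes, 34 fell at an adjusted p under 0.05, against 23.4% of the 14605 genes tested. By edgeR 0 of the 35 rose, against 25.2% of genes tested, with 0 at an unadjusted p under 0.05 and 0 by DESeq2. Over the 35 the median log2 fold change was -0.998, against 0.01 over all genes tested. Every role was included, and the median fall by role ran from -1.21 for the chromosome structure genes to -0.55 for the partners of the anaphase-promoting complex. The summed CPM of 7 melanoma lineage markers was 14042 in wild type and 5546 to 5741 in MITFKO. Most of this sum was PMEL (10151 CPM in wild type and a mean of 3278 in MITFKO). Of the 7 markers 5 fell, SOX10 rose (671 CPM to a mean of 820) and MITF was not called. The part of these markers in the results was not tested. With a single wild-type library, its spread was assumed to equal that of the edited groups.

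The 3 largest falls were in CDCA8, CDC20 and MKI67, followed by BUB1. CDCA8, the borealin subunit that brings the chromosomal passenger complex to centromeres, stood at 74.2 CPM in wild type and 22.7, 21.8 and 25.3 in MITFKO, a fall of 3.19-fold (log2 fold change -1.67, SE 0.165, adjusted p = 1.61e-07). Its partner BIRC5, survivin, went from 149.6 to 55.9, 63.2 and 65.4 CPM (2.43-fold lower), and the kinase subunit AURKB fell 2.24-fold. The scaffold of the same complex, INCENP, fell less, 1.62-fold (log2 fold change -0.70, SE 0.159, adjusted p = 0.00347). CDC20, which activates the anaphase-promoting complex, went from 205 CPM to 66.2, 69.4 and 73.0, 2.95-fold lower (log2 fold change -1.56, SE 0.247, adjusted p = 0.00136). The other members of its role fell least: UBE2C, the ubiquitin-conjugating enzyme of the complex, fell 1.46-fold and PTTG1, the securin it destroys, 1.34-fold (log2 fold change -0.42, SE 0.0769, adjusted p = 9.16e-05). MKI67, the Ki-67 surface protein of mitotic chromosomes, dropped from 317 CPM to 118, 117 and 115, 2.73-fold, and TOP2A, the topoisomerase that untangles sister chromatids, fell 1.96-fold.

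CDK1 and its partners fell together. CDK1 itself went from 131 CPM to 57.4, 56.9 and 56.3 (2.30-fold lower; adjusted p = 4.54e-04), and the 3 MITFKO values were close to each other. The cyclin genes CCNB1 and CCNA2 fell 2.16-fold and 2.04-fold, and CCNB2 1.51-fold. The activating phosphatase CDC25C fell 1.72-fold (log2 fold change -0.78, SE 0.188, adjusted p = 0.00145). Among the other kinases, PLK1 fell 2.05-fold, and AURKA, the kinase of the spindle poles, and its activator TPX2 fell 1.75-fold and 1.78-fold.

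The checkpoint genes all fell. BUB1, a kinetochore kinase of the checkpoint, was at 211 CPM in wild type and 87.5, 81.2 and 77.8 in MITFKO, a 2.57-fold fall with the smallest adjusted p of the 35 (7.69e-11). TTK, the kinase at the head of the checkpoint, fell 2.31-fold, and MAD2L1 and BUB1B, parts of the inhibitor of CDC20, fell 1.99-fold each. TTK is on chromosome 6, where the median log2 fold change of all 649 genes tested was -0.38; the part of this in the TTK value was not tested.

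Kinetochore genes were lower to unequal degrees. The kinetochore motor CENPE went from 84.4 CPM to 43.9, 38.3 and 33.3 (2.19-fold lower; adjusted p = 0.00169). CENPA, the histone that marks centromeres, went from 46.8 CPM to 20.97, 21.4 and 21.7, 2.19-fold lower (adjusted p = 0.00376). The 3 MITFKO values were close to each other for CENPA and wider apart for CENPE. Within the NDC80 complex, which binds microtubules, NUF2 fell 2.17-fold and NDC80 1.55-fold, and SPC25 did not pass the test (4.15 CPM against 2.08, 3.07 and 2.59; log2 fold change -0.69, SE 0.351, adjusted p = 0.114). SPC25 was the lowest of the 35 genes, with 22 counts in its lowest library. CENPF, a large protein of the outer kinetochore, fell 1.72-fold.

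Genes of the spindle and of cell separation followed. KIF2C, a kinesin that dismantles microtubules, went from 118 CPM to 57.2, 57.3 and 59.8 (2.03-fold lower), KIF11, which pushes the poles apart, fell 1.92-fold and ASPM, a pole protein, 1.94-fold. KIF23, a motor of the central spindle, went from 123 CPM to 59.9, 55.2 and 51.5 (2.22-fold lower; adjusted p = 1.46e-04). The microtubule bundler PRC1 fell 2.07-fold and the motor KIF20A 2.00-fold. ECT2, which activates RhoA for furrowing, and ANLN, which links the furrow to actin, fell less (1.74-fold and 1.69-fold).

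**Figure D2:**
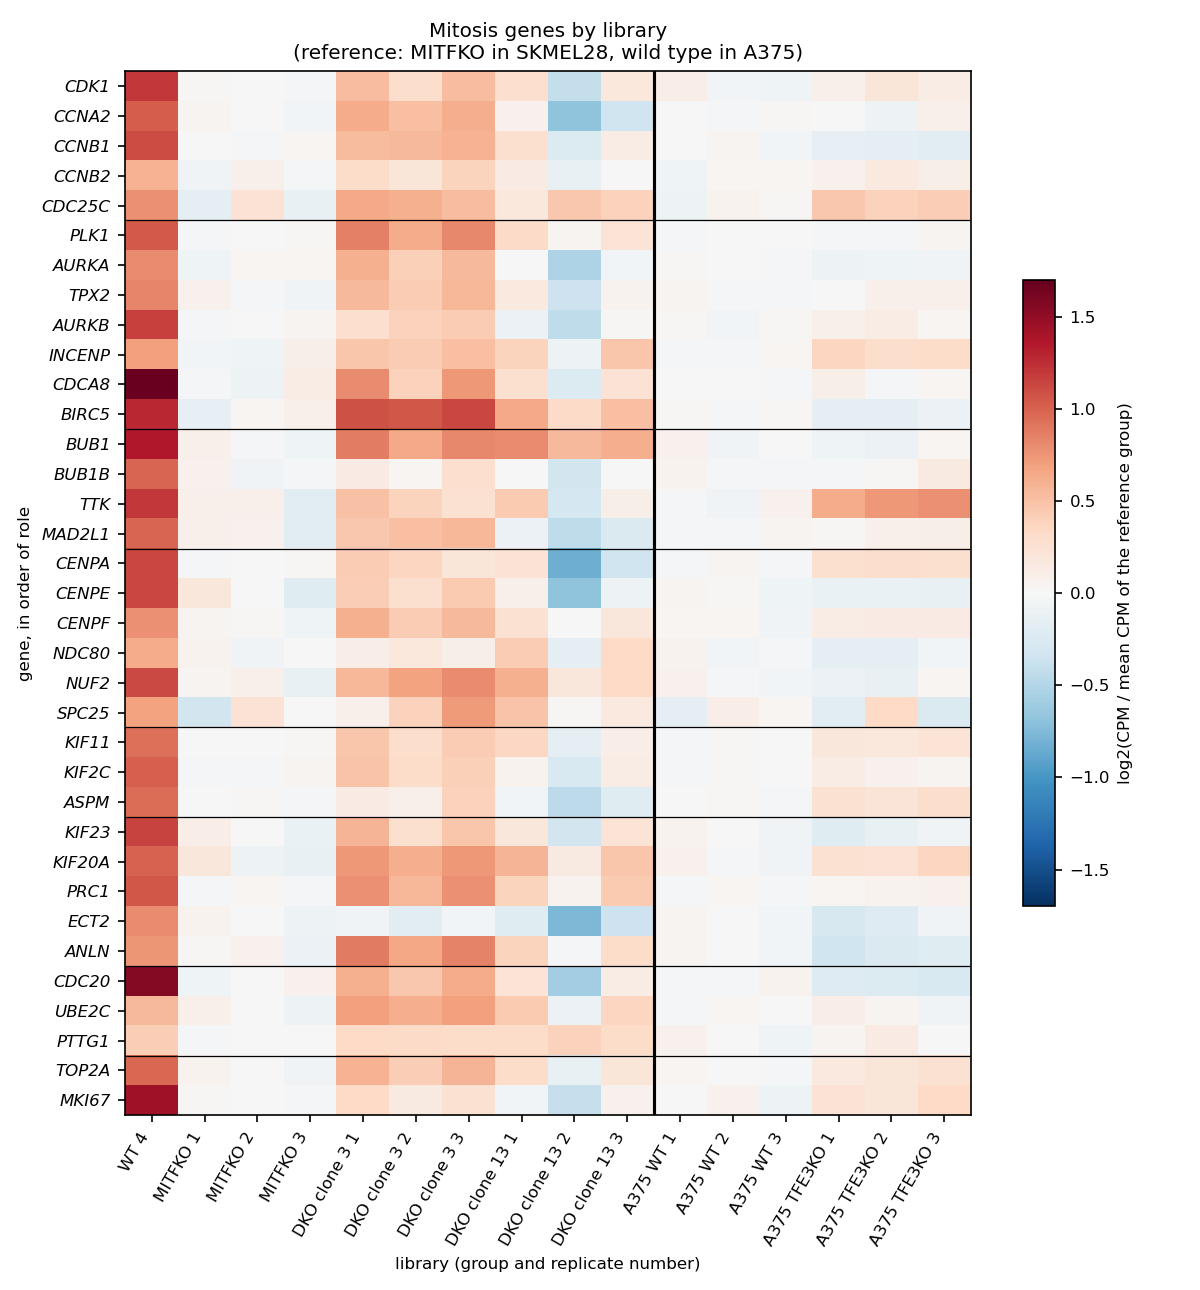
Each row is 1 of the 35 genes in order of role and each column a library, coloured by log2 of CPM over the mean CPM of MITFKO (SKMEL28) or of wild type (A375). Wild type is above MITFKO in every row, most in CDCA8 (3.19-fold) and least in PTTG1 (1.34-fold), and clone 13 replicate 2 is below MITFKO in 26 rows.

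Clone 3 against MITFKO asked what editing TFE3 adds in cells that already carry the MITF edit. In clone 3, 27 of the 35 genes rose, against 18.2% of the 14605 genes tested, and by edgeR 0 fell, against 17.6%, with 0 lower at an unadjusted p under 0.05 and 0 lower by DESeq2. The median log2 fold change was 0.51, against -0.01 over all genes tested. For 32 genes every clone 3 library was above every MITFKO library, a separation that was not counted over all genes. The 8 genes not called were BUB1B, CENPA, CENPE, NDC80, SPC25, ASPM, ECT2 and CDC20, which include 4 of the 6 kinetochore genes. The count that rose stayed between 23 and 27 when any 1 library of either group was left out. The summed CPM of 6 fibroblast markers was also higher in clone 3 (98.5 to 103) than in MITFKO (48.7 to 58.0), mainly through LUM (0.94 in log2, adjusted p = 4.95e-09), with 3 of the 4 tested higher; COL3A1 and PDGFRB were too low to be tested, and the part of these markers in the result was not tested.

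Survivin moved most. BIRC5 was at 55.9, 63.2 and 65.4 CPM in MITFKO and at 130.3, 128 and 135 in clone 3, a 2.13-fold rise (log2 fold change 1.09, SE 0.0766, adjusted p = 4.73e-10). Its partners CDCA8 and AURKB rose 1.58-fold and 1.29-fold. PLK1 rose 1.71-fold, from 85.3, 86.9 and 87.6 CPM to 157, 134 and 152. All clone 3 values of both genes were above MITFKO and below wild type (149.6 CPM for BIRC5 and 178 for PLK1).

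ANLN and BUB1 rose 1.74-fold and 1.72-fold. ANLN went from 172, 179 and 159 CPM to 313, 268 and 305 (log2 fold change 0.80, SE 0.0918, adjusted p = 9.89e-06), which spans the wild-type value of 287. BUB1 went from 87.5, 81.2 and 77.8 CPM to 149.5, 128 and 145 (log2 fold change 0.78, SE 0.0730, adjusted p = 3.48e-08), still below the wild-type 211. The other genes of cytokinesis were PRC1 (1.63-fold higher), KIF20A (1.62-fold) and KIF23 (1.36-fold), which rose, and ECT2, which did not. ECT2 was at 82.7, 79.8 and 74.8 CPM in MITFKO against 75.9, 69.1 and 76.5 in the clone 3 libraries, which overlapped (log2 fold change -0.10, SE 0.105; adjusted p 0.503). ECT2 is on chromosome 3, where all 817 genes tested had a median of -0.13, and its part in this value was not tested.

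CDK1 and its partners all rose, by 1.23-fold (CCNB2) to 1.51-fold (CDC25C). CDC25C, the lowest of them, was at 8.47, 11.3 and 8.71 CPM in MITFKO and 14.9, 14.4 and 13.6 in clone 3. Its exons overlap FAM53C on the other strand, a gene with 25711 counts over all libraries against 4734 for CDC25C, and strand use in counting is not given in the sources used here, so this value is uncertain. CCNB1, CCNA2 and CDK1 rose by 0.56, 0.58 and 0.45 on the log2 scale (adjusted p = 2.21e-04, 0.00419 and 0.0368).

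At kinetochores, NUF2 rose from 27.9, 28.8 and 24.8 CPM to 40.0, 43.7 and 47.3 (1.61-fold; adjusted p = 2.02e-05) and CENPF rose 1.44-fold. NDC80, the partner of NUF2 in the same complex, did not pass the test, at 27.5, 25.4 and 26.5 CPM and 28.6, 30.1 and 28.4 (log2 fold change 0.13, SE 0.118, adjusted p = 0.413). NDC80 is on chromosome 18, where the 212 genes tested had a median of -0.21; its part in this value was not tested. Of the partners of the anaphase-promoting complex, UBE2C rose from 41.2, 38.7 and 36.7 CPM to 63.1, 59.6 and 63.2 (1.596-fold), above its wild-type level of 56.7, and PTTG1 rose 1.25-fold. CDC20 was higher in every clone 3 library (106, 95.5 and 108 CPM) than in MITFKO but did not pass the test (adjusted p = 0.0575). KIF11 rose 1.32-fold, from 62.6, 62.7 and 63.9 CPM to 87.4, 77.5 and 85.3, KIF2C 1.32-fold and TOP2A 1.44-fold, from 235, 224 and 215 CPM to 338, 299.6 and 336. MKI67 rose least of the called genes, 1.19-fold (adjusted p = 0.0425).

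Against the wild-type library, clone 3 remained lower for most genes. By edgeR 24 of the 35 were lower, against 22.5% of genes tested, and 0 were higher, against 24.3%, with 0 at an unadjusted p under 0.05 and 0 by DESeq2. Their median log2 fold change was -0.48. MKI67 was the farthest below (2.29-fold lower; adjusted p = 5.31e-07), followed by CDCA8 (2.02-fold) and CDC20 (1.99-fold). ANLN, UBE2C, PTTG1 and BIRC5 were not called, with log2 fold changes of 0.04, 0.13, -0.10 and -0.19 (SE 0.128, 0.147, 0.0780 and 0.103). This comparison shares the clone 3 libraries with the one above.

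**Figure D3:**
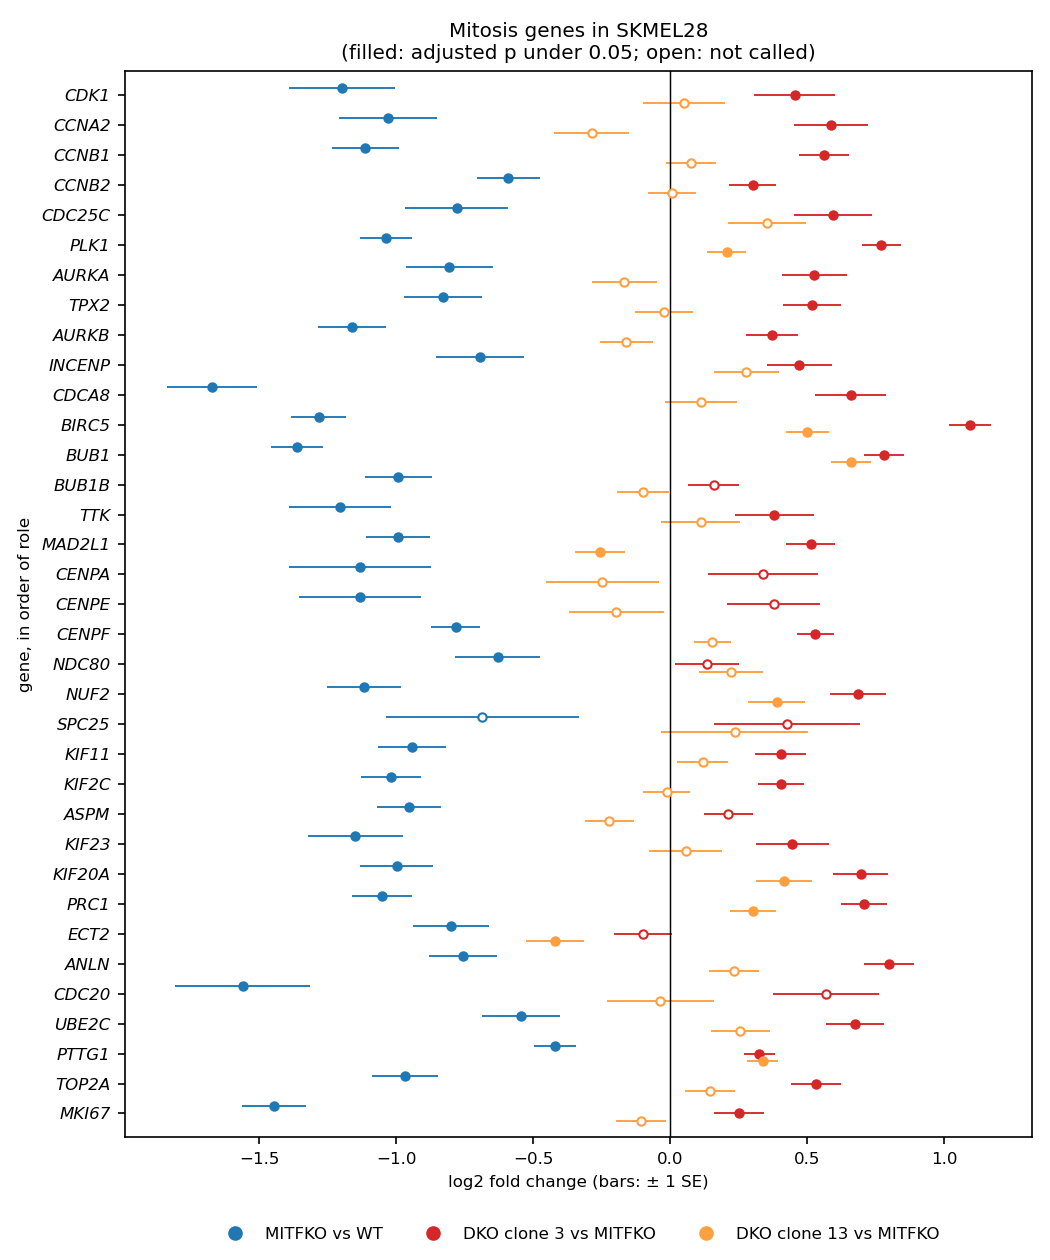
Log2 fold change ± 1 SE of the 35 genes in order of role: MITFKO against wild type (blue), clone 3 against MITFKO (red) and clone 13 against MITFKO (orange), with filled points for an adjusted p under 0.05. All blue points are below 0, 34 of the red points are above 0 with ECT2 the exception (-0.10), and the orange points lie on both sides of 0, with 9 filled.

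In clone 13 the same comparison gave few calls. Against MITFKO, 7 of the 35 genes rose, against 20.5% of genes tested, and 2 fell, against 20.2%, so both shares (7 and 2 of 35) were at or below those of all genes. The median log2 fold change was 0.11, against -0.02 over all genes. Without clone 13 replicate 2, 19 rose and 1 fell (21.8% and 20% of the genes tested in that fit), with a median of 0.24. The count that fell was 5 without clone 13 replicate 1 (2699 of 14606 genes tested). It was 1 without MITFKO replicate 1 or replicate 2 (2431 of 14544 and 2417 of 14631). With all libraries, 11 rose with DESeq2 size factors (3122 of 14605 genes tested) and 11 with no filter on low counts (3030 of 20176). With a correction for GC content 13 rose (3441 of 14605). Summed keratinocyte markers were 30.4 to 35.6 CPM in clone 13 against 20.4 to 25 in MITFKO and fibroblast markers 73.7 to 84.2 against 48.7 to 58.0, and their part was not tested. The MITFKO libraries are the controls of both clones, so the 2 comparisons are not independent.

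The genes that rose in clone 13 were BUB1, BIRC5, KIF20A, NUF2, PTTG1, PRC1 and PLK1. BUB1 was at 143, 121 and 126 CPM in clone 13 against 87.5, 81.2 and 77.8 in MITFKO, a 1.58-fold rise (log2 fold change 0.66, SE 0.0729, adjusted p = 2.41e-07). BIRC5 rose 1.41-fold, to 96.4, 76.97 and 87.6 CPM (log2 fold change 0.50, SE 0.0768, adjusted p = 1.82e-05). In both genes replicate 2 was the lowest of clone 13 and still above all MITFKO libraries. NUF2 rose 1.31-fold, to 41.4, 31.1 and 34.2 CPM, and PTTG1 1.26-fold, to 117, 123 and 117 CPM, where replicate 2 was the highest. For 6 genes (these 4, PRC1 and PLK1) all clone 13 libraries were above all MITFKO libraries, a separation not counted over all genes. KIF20A overlapped (79.8, 59.5 and 74.3 CPM against 61.0, 50.03 and 49.0).

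ECT2 and MAD2L1 fell. ECT2, which had not changed in clone 3, was at 68.7, 46.7 and 61.9 CPM in clone 13 against 82.7, 79.8 and 74.8 in MITFKO, 1.34-fold lower (log2 fold change -0.42, SE 0.106, adjusted p = 0.00453), with no overlap. MAD2L1 was at 41.6, 33.0 and 37.6 CPM against 47.5, 46.9 and 39.4, 1.19-fold lower (adjusted p = 0.0280), with overlap. Without replicate 2 the log2 fold change of ECT2 went from -0.42 to -0.27 (adjusted p = 0.00156), and that of MAD2L1 from -0.26 to -0.17, which was not called (adjusted p = 0.112). ASPM was below MITFKO in all 3 libraries (84.1, 64.3 and 75.9 against 87.3, 88.8 and 85.4 CPM) and did not pass the test (adjusted p = 0.0546). TOP2A (279, 206 and 259 CPM) and CDC25C (10.7, 13.1 and 12.4 CPM) were not called (adjusted p = 0.227 and 0.0533). CDC20 was at 81.3, 46.3 and 76.0 CPM, with a log2 fold change of -0.04 that became 0.18 and was called (adjusted p = 0.0263) without replicate 2.

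MAD2L1, CCNA2 and CENPE, which had negative log2 fold changes in clone 13 (-0.26, -0.29 and -0.20), are all on chromosome 4. The median over all 528 genes tested on chromosome 4 was -0.38 in clone 13 against MITFKO, the lowest of the 14 chromosomes that carry the 35 genes, and -0.02 in clone 3 against MITFKO. How far this chromosome-wide difference enters the 3 values was not tested.

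The 2 clones were compared directly. Clone 13 was lower than clone 3 for 25 of the 35 genes, against 13.4% of genes tested, and by edgeR higher for 0, against 14.3%, with 0 at an unadjusted p under 0.05 and 0 by DESeq2. Its median log2 fold change was -0.40, against a median near 0 over all genes. Without clone 13 replicate 2, 23 genes were lower and 1 higher (12.2% and 14.3% of genes tested). The clones thus differed in these genes beyond the spread of their flasks with or without that library, although each is 1 clone.

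CCNA2 differed most between the clones, at 65.0, 59.8 and 64.8 CPM in clone 3 and 44.3, 26.3 and 33.3 in clone 13, 1.83-fold lower (log2 fold change -0.87, SE 0.137, adjusted p = 3.70e-04). MAD2L1 was 1.703-fold lower, 61.3, 63.9 and 65.8 against 41.6, 33.0 and 37.6 CPM (log2 fold change -0.77, SE 0.0904, adjusted p = 1.39e-06). Both are on chromosome 4, whose median over all genes was -0.39 between the clones, and so is CENPE (1.49-fold lower; adjusted p = 0.0327). Genes on other chromosomes differed too: AURKA was at 183, 159 and 176 CPM against 121, 83.4 and 116, 1.62-fold lower (log2 fold change -0.69, SE 0.118, adjusted p = 0.00135), on chromosome 20, where the median over all genes was -0.04. BIRC5, ANLN and PLK1 were 1.51-fold, 1.48-fold and 1.48-fold lower (adjusted p = 4.00e-06, 3.33e-04 and 3.34e-06), and ANLN stood at 221, 167 and 210.1 CPM in clone 13.

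CDC20 and CENPA were lower by as much and did not pass the test (1.52-fold and 1.501-fold; adjusted p = 0.0576 and 0.0563). CENPA was at 28.8, 27.4 and 24.7 CPM in clone 3 and 25.3, 12.1 and 16.8 in clone 13, where replicate 1 overlapped clone 3 and the others were below it. ASPM (96.3, 92.4 and 114 against 84.1, 64.3 and 75.9 CPM) and TOP2A (338, 299.6 and 336 against 279, 206 and 259 CPM) were 1.35-fold and 1.31-fold lower in clone 13 (adjusted p = 0.00133 and 0.00525). BUB1, PTTG1 and NDC80 were not called, with log2 fold changes of -0.12, 0.01 and 0.09 (SE 0.0719, 0.0560 and 0.117). Against the wild-type library clone 13 was lower for 31 genes, against 26.6% of genes tested, and by edgeR higher for 0, against 27.0%, with 0 at an unadjusted p under 0.05 and 0 by DESeq2. The median there was -0.85, and PTTG1, UBE2C, CDC25C and SPC25 were not called. Without clone 13 replicate 2 these counts were 31 and 0 (27.4% and 28.2% of genes tested).

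**Figure D4:**
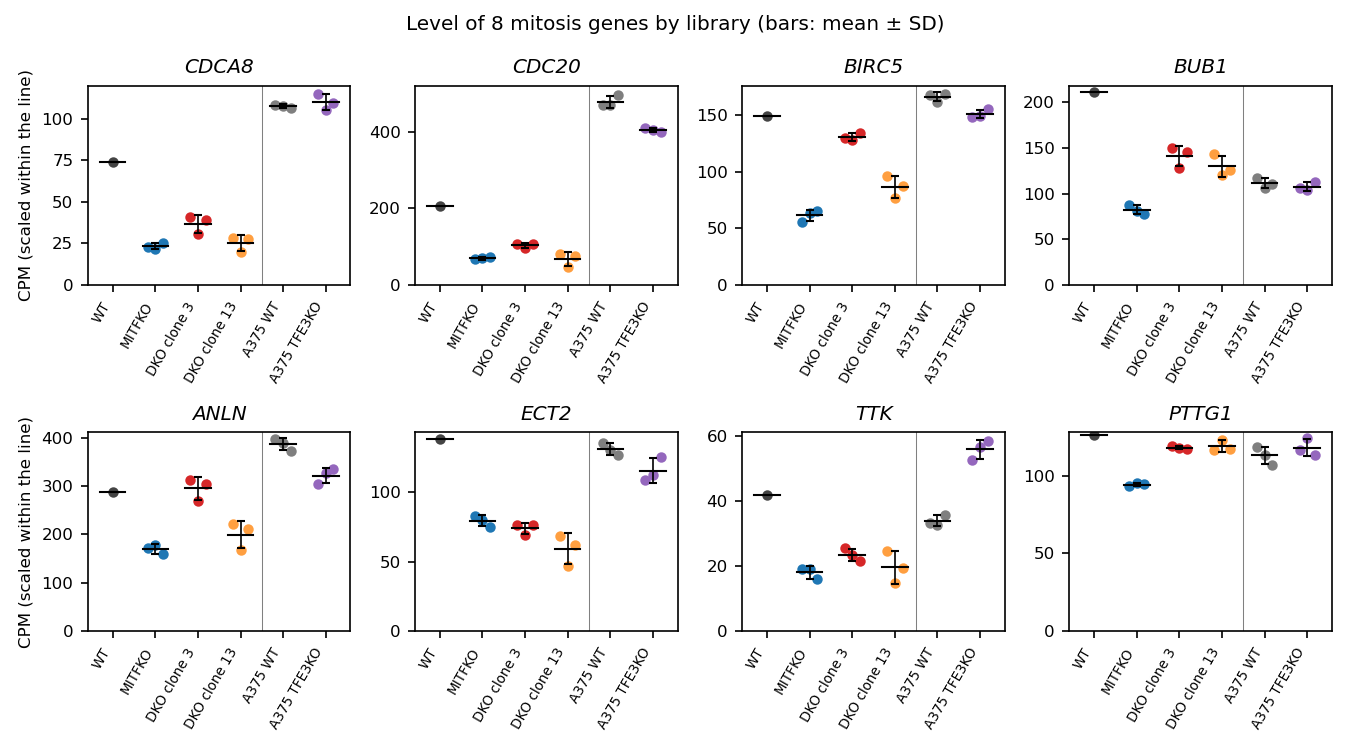
Level in CPM of 8 of the genes in each library (points) with the group mean and SD (bars), SKMEL28 on the left of each panel and A375 on the right. In clone 3 ANLN spans the wild-type level of 287 and BIRC5 lies below its wild-type level of 149.6, BUB1 is above MITFKO in both clones, ECT2 is lowest in clone 13, and TTK is higher in A375 TFE3KO than in A375 wild type.

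In A375, TFE3 was edited in cells whose MITF was not, although MITF mRNA was 1.92-fold lower in TFE3KO (adjusted p = 3.93e-13). There 11 of the 35 genes rose, against 21.3% of the 14012 genes tested, and 6 fell, against 22%. The median log2 fold change was 0.05, against 0.00 over all genes, and it ran from -0.27 (ANLN) to 0.71 (TTK). The leukocyte and endothelial markers summed to 4.12 to 4.25 CPM in wild type and 10.2 to 12 in TFE3KO, with a part that was not tested. The median coefficient of variation within the A375 groups was 3.30% and 3.46%. For 13 genes all TFE3KO libraries were above all wild-type libraries, and for 9 all were below. How common such separation was over all genes was not counted.

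TTK rose most. It was at 33.4, 32.8 and 35.9 CPM in wild type and 52.7, 56.6 and 58.5 in TFE3KO, a 1.64-fold rise (log2 fold change 0.71, SE 0.0686, adjusted p = 9.45e-13), while the rest of the checkpoint was not called: BUB1, BUB1B and MAD2L1 had log2 fold changes of -0.05, 0.05 and 0.07. CDC25C rose 1.34-fold, from 13.7, 15.1 and 14.6 CPM to 19.9, 19.0 and 19.3 (adjusted p = 6.75e-04; the overlap with FAM53C applies here too). INCENP rose 1.25-fold, from 189, 189 and 195 CPM to 246, 235 and 238 (log2 fold change 0.33, SE 0.0369, adjusted p = 1.29e-10). None of these groups overlapped.

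The other rises were below 1.25-fold. KIF20A went from 184, 172 and 167 CPM to 209.6, 207 and 225 (1.23-fold), CENPA from 28.4, 29.8 and 28.6 to 34.9, 35.4 and 34.9 (1.21-fold), MKI67 from 543, 569 and 506 to 642, 621 and 681 (1.20-fold) and ASPM from 214, 216 and 207 to 254, 248 and 261 (1.20-fold). TOP2A, KIF11, CDK1 and CENPF rose 1.10-fold to 1.15-fold. All 4 genes with printed values were higher in every TFE3KO library than in every wild-type library.

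The falls were as small. ANLN went from 397, 389 and 372 CPM to 304, 326 and 334, 1.20-fold lower (log2 fold change -0.27, SE 0.0352, adjusted p = 1.04e-08), and CDC20 from 471, 469.7 and 498 to 411, 407 and 401, 1.18-fold lower (log2 fold change -0.24, SE 0.0320, adjusted p = 1.30e-08). ECT2, CCNB1, BIRC5 and KIF23 fell 1.09-fold to 1.14-fold. ANLN, ECT2 and KIF23 are 3 of the 5 genes of cytokinesis, in which KIF20A rose and PRC1 was not called (log2 fold change 0.06). PLK1 and CCNA2 had log2 fold changes within 1 SE of 0 (SE 0.0330 and 0.0414).

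The effect of TFE3 editing was compared between the lines by an interaction term: clone 3 against MITFKO, minus TFE3KO against wild type in A375. The difference was above 0 for 21 of the 35 genes, against 18.2% of the 15093 genes tested, and by edgeR below 0 for 0, against 18.6%, with 0 at an unadjusted p under 0.05 and 0 by DESeq2. The median difference was 0.41 in log2, against -0.01 over all genes. It was largest for BIRC5 (1.24, SE 0.0917, adjusted p = 1.17e-11) and ANLN (1.07, SE 0.112, adjusted p = 2.73e-07), which rose in clone 3 and fell in A375. CCNB1 and KIF23 also rose in clone 3 and fell in A375 (difference 0.73 and 0.58). MKI67, ASPM and ECT2 were not called (-0.01, -0.04 and 0.09; SE 0.116, 0.103 and 0.130), and TTK had the only difference below -0.1 (-0.33, SE 0.169, adjusted p = 0.133). The lines differ in MITF state and medium as well as in origin, and the part of each cannot be told apart.

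For clone 13 the same difference was above 0 for 7 genes, against 18.4% of genes tested, and below 0 for 4, against 19.2%. The 7 were BUB1 (0.72, SE 0.0947), BIRC5 (0.65, SE 0.0921), ANLN, NUF2, PTTG1, PRC1 and PLK1, and the 4 were TTK (-0.59, SE 0.170), ASPM, MKI67 and MAD2L1. The median was -0.05. Without clone 13 replicate 2, 13 genes were above 0, beside 3067 of the 15386 genes tested in that fit. Without clone 13 replicate 1, 7 were below 0, beside 2900 of 15444.

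**Figure D5:**
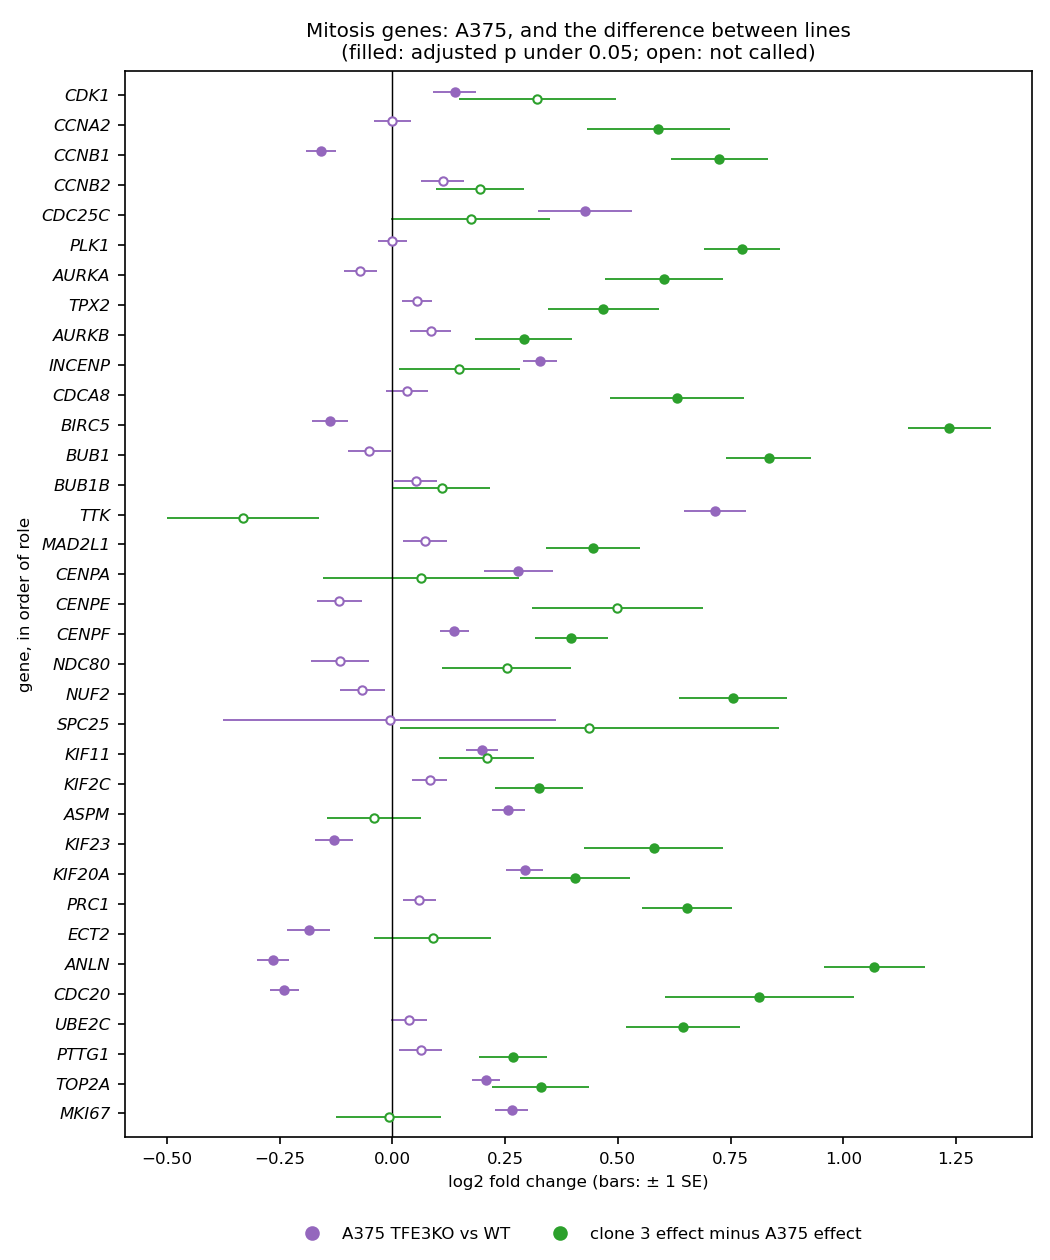
Log2 fold change ± 1 SE of the 35 genes in A375 TFE3KO against wild type (purple) and the difference of effects, clone 3 minus A375 (green), with filled points for an adjusted p under 0.05. The purple points run from -0.27 (ANLN) to 0.71 (TTK), and 21 green points, all above 0, are filled, led by BIRC5 at 1.24.

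Compared per kilobase of the longest annotated transcript, the most abundant of the 35 in wild-type SKMEL28 were CCNB1 (141 CPM per kb), PTTG1 (118) and CDC20 (115), and the least abundant was SPC25 (3.06). In MITFKO the order of the first 3 changed, with PTTG1 at 88.0, CCNB1 at 65.2 and AURKA at 53.3 CPM per kb, while CDC20 stood at 39.1. In A375 wild type CDC20 (269.9) and UBE2C (221) led, followed by CCNB1 (179.8). Lengths came from an annotation of another build than the counts, matched by symbol.

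Reads of 9 of the 35 genes can be shared with another counted gene whose exons overlap theirs, and for 7 of these the other gene is on the opposite strand. The largest overlaps with a well-expressed neighbour were those of CCNA2 with EXOSC9 (9.08% of the exon bases of CCNA2), CDC25C with FAM53C (8.78%) and CENPA with SLC35F6 (6.96%). PTTG1 and AURKA also have processed copies elsewhere in the genome, and how reads with several matches were treated is not given in the sources used here.

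The wider mitotic programme was described with lists that hold none of the 35 genes. In MITFKO against wild type, 23.4% of all genes tested were lower and 25.2% higher. There 27 of 31 other kinetochore and centromere genes measured fell and 1 rose (median log2 fold change -0.61). Of 27 other spindle, motor and cytokinesis genes 22 fell (median -0.72, none called higher), and of 20 condensin and cohesin genes 15 fell (median -0.44). Within each list the largest falls were in BUB3, the checkpoint partner of BUB1 (2.73-fold), SKA2, which couples kinetochores to microtubules (2.30-fold), the microtubule destabiliser STMN1 (2.73-fold), the spindle proteins DLGAP5 (2.36-fold) and DEPDC1 (2.21-fold) and the condensin subunits NCAPG (2.44-fold) and NCAPG2 (2.12-fold). The constitutive subunits of the anaphase-promoting complex moved less: 7 of 14 fell (median -0.39), led by ANAPC15 (1.96-fold) and CDC16 (1.76-fold).

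Regulators of entry and exit and the transcription factors fell in part, beside the same 23.4% lower and 25.2% higher of all genes tested. Of 17 entry and exit regulators 12 fell (median -0.47), led by FBXO5, the inhibitor of the anaphase-promoting complex (3.28-fold), and CKS2, a CDK1 subunit (2.14-fold). The list of transcription factors of mitotic genes held 22, not all of them subunits of the DREAM or MYBL2 complexes. Of these 11 fell and 3 rose (median -0.31). The histone-binding RBBP4 (2.32-fold) and NFYA, of the CCAAT-binding factor (2.00-fold), fell most. FOXM1 fell 1.55-fold, from 122 CPM to 77.8, 80.5 and 78.4 (adjusted p = 0.00947), and MYBL2 was not called, at 88.9 and 69.8, 75.6 and 75.8 CPM (adjusted p = 0.271). DNA replication genes, which belong to an earlier phase, fell in 32 of 37 cases (median -0.73), led by GINS1 (3.47-fold), the sliding clamp PCNA (3.11-fold) and ORC1 (2.69-fold).

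In clone 3 against MITFKO these lists rose in part. Against the 18.2% higher and 17.6% lower of all genes tested, the counts called higher and lower were 12 and 0 of 31 other kinetochore genes, 16 and 0 of 27 other spindle genes, 10 and 2 of 20 condensin and cohesin genes, 2 and 3 of 14 constitutive subunits, 8 and 2 of 17 entry and exit regulators, 9 and 3 of 22 transcription factors and 24 and 1 of 37 DNA replication genes. Their medians ran from 0.16 (transcription factors) to 0.40 (spindle genes), below the 0.51 of the 35 genes. The largest rises at the kinetochore were in CENPW (1.77-fold) and OIP5, which loads CENPA (1.56-fold), and on the spindle in TACC3 (1.68-fold) and HMMR (1.62-fold). CDCA5, the sororin of cohesin, rose 1.54-fold, NCAPH of condensin 1.45-fold, GTSE1 1.80-fold and PKMYT1, a kinase that inhibits CDK1, 1.63-fold. Among the replication genes TK1, a thymidine kinase, rose 1.97-fold and GINS2 1.72-fold. The constitutive subunits parted, with ANAPC13 1.38-fold lower and ANAPC11 1.31-fold higher, as did the factors, with TFDP2, a dimer partner of E2F proteins, 2.14-fold lower and E2F8 1.92-fold higher. FOXM1 rose 1.41-fold, to 121, 102 and 109.7 CPM (adjusted p = 0.00996), and MYBL2 1.33-fold, to 101, 96.4 and 98.2 CPM (adjusted p = 0.0357).

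In clone 13 the lists were mixed. Against MITFKO, where 20.5% of all genes tested were higher and 20.2% lower, the counts were 5 and 4 of the other kinetochore genes, 4 and 3 of the spindle genes, 5 and 5 of the condensin and cohesin genes, 3 and 4 of the constitutive subunits, 4 and 3 of the entry and exit regulators, 3 and 6 of the transcription factors and 9 and 6 of the DNA replication genes. Without clone 13 replicate 2 (21.8% and 20% of all genes tested) the counts in the same order were 8 and 4, 10 and 3, 8 and 5, 3 and 4, 5 and 3, 7 and 5, and 20 and 5, so that among the transcription factors more were then higher than lower. FOXM1 was at 87.9, 58.4 and 82.0 CPM in clone 13, 1.46-fold lower than in clone 3 (adjusted p = 0.00777), and MYBL2 at 74.2, 46.1 and 66.9 CPM, 1.58-fold lower (adjusted p = 0.00489). Replicate 2 was the lowest of clone 13 for both. Within the lists, the largest changes against MITFKO were in CIT, a kinase of cytokinesis (1.87-fold lower), and NUMA1, a spindle pole protein (1.84-fold higher), and in TK1 (1.88-fold higher) and RFC4 (1.55-fold lower). FBXO5 was 1.41-fold higher, CDC25B 1.34-fold lower, and ANAPC13 and ANAPC1 1.68-fold and 1.56-fold lower. The kinetochore genes CENPU and CENPO were 1.49-fold and 1.40-fold lower, the cohesin regulator PDS5A and the condensin subunit SMC4 1.48-fold and 1.31-fold, and LIN54, the subunit of DREAM that binds the CHR, and TFDP2 1.61-fold and 1.61-fold. CENPU, PDS5A and LIN54 are on chromosome 4, where 7 of the 8 genes of these lists had a negative log2 fold change and 3 fell, beside the all-gene median of -0.38 given above.

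In A375 TFE3KO the lists moved in both directions, as the 35 genes did. With 21.3% of all genes tested higher and 22% lower, the counts higher and lower were 11 and 4 of the other kinetochore genes, 11 and 5 of the spindle genes, 7 and 4 of the condensin and cohesin genes, 1 and 4 of the constitutive subunits, 4 and 5 of the entry and exit regulators, 4 and 3 of the transcription factors and 12 and 7 of the DNA replication genes. MYBL2 rose 1.42-fold, from 278, 271 and 266 CPM to 387, 393 and 381 (adjusted p = 1.12e-18), while FOXM1 was not called (315, 315 and 307 and 305, 329 and 318 CPM; adjusted p = 0.620). E2F5 fell 1.696-fold. BORA, which helps to activate PLK1, rose 1.54-fold and cyclin F, CCNF, 1.40-fold. The kinetochore genes CENPU and SKA3 rose 1.37-fold and 1.34-fold, the spindle genes CKAP2 and NUSAP1 1.37-fold and 1.30-fold, and the replication genes POLA1 and TK1 1.40-fold and 1.33-fold. WAPL, which releases cohesin, fell 1.38-fold and PDS5B, its partner, rose 1.37-fold, while CDC26 and ANAPC13 fell 1.27-fold and 1.25-fold.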

How the data were processed

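RNA was counted per gene in 16 libraries of 6 groups. The deposited files hold raw read counts per gene symbol, and the submitters' processing notes name STAR, featureCounts, DESeq2 and hg19, with no versions. The strand setting is not given in the sources used here, nor are the annotation and the handling of reads with several matches. Per the file headers, 15 of the 16 count columns were made from STAR output, and the other, A375 wild type 2, names no input.

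The main test was that of edgeR 4.0.16 (R 4.3.3): low genes filtered by group (filterByExpr), TMM scaling, robust quasi-likelihood F-test, Benjamini-Hochberg adjustment over all genes tested, called at an adjusted p under 0.05. One model held the 10 SKMEL28 libraries (14605 genes), another the 6 A375 libraries (14012) and a joint one the 15 libraries without SKMEL28 wild type (15093 genes, for differences between lines). The test was checked on simulated counts. Alternatives were DESeq2 1.42.0, its size factors or upper-quartile factors in edgeR, no filter, a replicate block, a GC correction and a fit of the compared groups alone. Each library of the compared groups was also left out in turn, except the lone SKMEL28 wild type. Chi-square per degree of freedom between replicates was 3.20 to 23.3, so no library was a copy of another.

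Library values are given for the gene of each role with the largest change per comparison and for genes against the rest, and 2 to 4 called genes are named of each other list. The 35 genes, the lists and the tests were chosen with earlier results of these data known. Promoters came from RefSeq (GRCh38.p14), gene lengths and GC content from GENCODE by symbol, and chromosomes from RefSeq.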

Additional observations from a re-analysis of the deposited data

Results flagged for a closer look

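Differences between groups in their response were tested for every gene. The effect of TFE3 editing differed between clone 3 and A375 for 21 of the 35 genes. All had the larger log2 fold change in clone 3, against 18.2% of genes tested. It differed between clone 13 and A375 for 11. Of these 7 had the larger log2 fold change in clone 13 and 4 the smaller, against 18.4% and 19.2% of genes tested. Both counts (7 and 4 of 35) were thus near or below the shares of all genes.

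The 2 clones, which carry the same pair of edits by their labels, differed for 25 of the 35 genes. All were lower in clone 13, where 13.4% of genes tested were lower and 14.3% higher. TFE3 mRNA was 9.37 ± 1.80 CPM (SD, n = 3) in clone 3 and 45.7 ± 2.88 in clone 13, the latter at the level of the wild-type library (43.7), so that the TFE3 label of clone 13 was not checked by this mRNA.

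For 4 genes the effect in clone 3 and that in A375 were each called with opposite signs. The difference in log2 fold change was 1.24 for BIRC5 (1.09 in clone 3 and -0.14 in A375), 1.07 for ANLN (0.80 and -0.27), 0.73 for CCNB1 (0.56 and -0.16) and 0.58 for KIF23 (0.45 and -0.13). BIRC5 was such a gene in clone 13 too, with a difference of 0.65.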

How the results depend on the processing

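With any 1 MITFKO library left out, the genes lower in MITFKO than in wild type stayed at 34. The lone wild-type library of SKMEL28 could not be left out, so its part in that count is not covered. With any 1 library of the compared groups left out, the genes higher in clone 3 than in MITFKO were 23 to 27. The genes lower in clone 13 than in clone 3 were then 17 to 29. Only clone 13 counts moved by more than 1.5 times. Against MITFKO its 7 higher genes became 11 with DESeq2 size factors (3122 of 14605 genes tested), 11 with no filter on low counts (3030 of 20176) and 13 with the GC correction (3441 of 14605). The count was 6 to 19 with 1 library left out. It was 20 with both DKO libraries numbered 2 left out (3328 of 14477), an alternative chosen after seeing the data. Its 2 lower genes became 5 with no filter (2973 of 20176) and 1 with the GC correction (2521 of 14605). They became 1 to 5 with 1 library left out and 1 with both libraries numbered 2 left out (3084 of 14477). Against clone 3 its count of higher genes, 0, became 0 to 1 with 1 library left out and 1 with both left out. In the difference of clone 13 from A375, the 4 lower genes became 7 with no filter (3027 of 21531 genes tested) and 2 with the GC correction (2514 of 15093). With 1 library left out they became 3 to 7, and the 7 higher genes 5 to 13. With 1 library left out, the log2 fold change of CDC20 in clone 13 against MITFKO, -0.04, ran from -0.18 without clone 13 replicate 1 to 0.18 without clone 13 replicate 2 (adjusted p = 0.0263, edgeR) and it was 0.18 with both libraries numbered 2 left out (adjusted p = 0.0142, edgeR). The cause was not tested.

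Same-numbered libraries of the 2 clones deviated together with r of 0.0749 to 0.231, highest for the libraries numbered 2. Libraries of the clones with different numbers had r of -0.160 to 0.0823. In the other pairs of groups r was -0.0546 to 0.0321 for the same number, so replicate numbers did not pair those samples. With a replicate block 12 genes were higher and 4 lower in clone 13 than in MITFKO (3110 and 3096 of 14605 genes tested). With the block and the GC correction 14 were higher and 1 lower (3534 and 2613 of 14605). The higher genes of clone 13 minus A375 then became 11 (3297 of 15093). The block moved no other count of called genes by more than 1.5 times. SPC25, with 22 counts in its lowest library, is the gene whose depth limits the test most.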
